A study of Mus musculus with 9 samples.

Results

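The transcripts of 10 imprinted genes, Mest, Plagl1, Peg3, Impact, Peg10, Nnat, Snrpn, Kcnq1ot1, Igf2r and Grb10, were followed in growing mouse oocytes with 3 different sets of sex chromosomes. The members were taken by gene name, and all 10 had a row among the 28052 genes of the count matrix. RNA was measured in 9 pools of 30 oocytes, 3 pools each from XX, XO and XY females, labelled C57BL/6 and 18 days post partum, and in each pool 10 oocytes measured 50–55 µm across and the other 20 measured 55–60 µm. XY females and their XX littermates were sired by B6.Y TIR males, in which the Y chromosome of the TIR strain lies on a B6 background. XO females were sired by carriers of the Paf mutation, which had been brought from C3H/HeSnJ to B6 by backcrossing, so that XO status and this cross cannot be told apart.

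An imprinted gene is transcribed mainly from the copy inherited from 1 parent. The mark that sets the copies apart is DNA methylation laid down in the germ line, and at the loci of all 10 members it is the egg's copy that becomes methylated, while the oocyte grows, by DNMT3A with its partner DNMT3L. In the offspring Mest, Plagl1, Peg3, Impact, Peg10, Nnat, Snrpn and Kcnq1ot1 are then expressed from the father's copy, and Igf2r and Grb10 mainly from the mother's. Transcription across these loci in the growing oocyte precedes their methylation. The counts do not separate the parental copies and hold no methylation, so they give the amount of each transcript alone.

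The members lie on autosomes. In GRCm38, Mest lies at chr6:30723547-30748465 and Peg10 at chr6:4747306-4760517, both on the plus strand. Peg3 (chr7:6703892-6730431), Snrpn (chr7:59982495-60140219) and Kcnq1ot1 (chr7:143212155-143296549) lie on the minus strand of chromosome 7. Plagl1 (chr10:13060504-13131694), Nnat (chr2:157560078-157562522) and Impact are on the plus strand, and Igf2r (chr17:12682406-12769664) and Grb10 (chr11:11930508-12038683) on the minus strand. Kcnq1ot1 is an antisense RNA and the others code for proteins. Gencode vM21 places exons of Copg2 and of Kcnq1 opposite exons of Mest and of Kcnq1ot1, Airn opposite Igf2r without shared exons, Nnat inside Blcap, and Snurf on the same strand as Snrpn. The reads were aligned in stranded mode, but the use of strand in counting is not given in the sources used here, so the values of such partners are uncertain where they share sequence.

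Mest and Grb10 are the members that passed a test between genotypes, and the 250 bases before their annotated starts are shown to give the CpG sites at which methylation can lie. The sequences are those of RefSeq on GRCm38.p6, read 5′ to 3′ on the strand of the gene, with CpG sites in capitals. Windows overlapping no annotated exon were chosen. Whether they lie in the region of the locus that carries the imprint was not examined. The Mest window is chr6:30737800-30738049 (plus strand), and the Grb10 windows are chr11:12027972-12028221 and chr11:12037421-12037670 (minus strand).
Mest: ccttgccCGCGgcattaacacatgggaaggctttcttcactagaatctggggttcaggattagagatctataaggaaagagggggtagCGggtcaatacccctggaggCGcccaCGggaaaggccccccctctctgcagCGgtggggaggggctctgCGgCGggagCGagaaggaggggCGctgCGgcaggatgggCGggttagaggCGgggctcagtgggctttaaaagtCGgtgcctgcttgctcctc
Grb10, inner start: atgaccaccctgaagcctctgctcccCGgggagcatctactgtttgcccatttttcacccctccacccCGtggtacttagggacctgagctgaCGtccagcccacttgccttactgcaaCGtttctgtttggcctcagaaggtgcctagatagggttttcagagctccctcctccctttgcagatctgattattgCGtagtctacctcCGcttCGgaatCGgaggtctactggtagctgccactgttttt
Grb10, outer start: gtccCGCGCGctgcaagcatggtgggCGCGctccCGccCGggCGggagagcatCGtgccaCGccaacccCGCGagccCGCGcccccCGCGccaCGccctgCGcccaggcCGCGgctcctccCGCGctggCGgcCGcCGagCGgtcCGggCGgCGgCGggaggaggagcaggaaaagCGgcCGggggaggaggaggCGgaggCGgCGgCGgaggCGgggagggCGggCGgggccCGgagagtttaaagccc

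The Mest window held 14 CpG sites, the inner Grb10 window 8 and the outer Grb10 window 40. A window of the same length held a median of 6 CpG sites over 32851 windows of 27025 genes, and 98.7% of these had fewer than the outer Grb10 window. Windows of 8 of the 10 members were counted, Impact being left out beforehand. They numbered 14 in all, and 9 of these 14 exceeded the median. The overlapping Mest windows that start at 30737800 and 30737803 were counted separately. TGCCGC, the motif bound by ZFP57 when methylated, was searched on both strands. It was found 2 times in the Mest window and not in either Grb10 window, and 8.68% of all windows held it. A match describes these letters only, and no binding or methylation was measured.

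Each pool yielded between 2130145 and 3157338 unique molecular identifiers (UMIs) on genes, a UMI standing for 1 captured transcript 5′ end whatever its number of PCR copies. Since 1 transcript gives 1 UMI, levels were not divided by gene length. The unit used below is normalized CPM, the UMI count as CPM of all UMIs on genes in the pool, divided by the TMM factor of its ERCC spike-ins, and 1 UMI was worth between 0.302 and 0.565 normalized CPM. Summed over 14 oocyte markers, pools held between 18904 and 43790 normalized CPM, the lowest in XO pool 1 and the highest in XO pool 3. Of 15 granulosa cell markers, 9 had a value, with sums of 59.2–84.4 normalized CPM in the XX pools, 73.5–130.4 in the XO pools and 68.4–121 in the XY pools. Of these 9, Amhr2, Inha and Fst had 3, 1 and 1 UMIs over all 9 pools and Inhba and Fshr 32 and 31, whereas Nr5a2 had 699, Serpine2 492, Cyp19a1 463 and Kitl 292. In XX against XO, Serpine2 was called higher in XO (-1.46, edgeR adjusted p = 0.229) and Kitl higher in XX (1.09, edgeR adjusted p = 0.203). Of 13 theca, stroma and blood markers, 6 had a value, and their sums were 21.7–50.6 in the XX pools, 17.6–133.8 in the XO pools and 26.5–61.9 in the XY pools, of which Pecam1 made up most. XO pool 1 stands apart from the other XO pools in these sums, so results on XO oocytes are also given without it where it changes the call. Its column carries no replicate number and was taken as pool 1 because the other XO columns carry 2 and 3. The study named XX pool 1, XO pool 2 and XY pool 1, not XO pool 1, as less similar to their other replicates.

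The 10 members spanned a wide range of levels and together made up 0.0242% of the UMIs on genes, 5486 UMIs. Mest (mean 106 normalized CPM over the 9 pools) and Plagl1 (73.9) were in the top 10% of 28051 genes by mean level. Grb10 (19.7), Peg3 (18.8) and Igf2r (14.9) followed within the top 25%. Impact (9.43), Kcnq1ot1 (6.24), Peg10 (3.79) and Snrpn (1.69) lay lower but in the top 50% of all genes, and Nnat was at 0.0852. The spreads of Grb10, Peg3 and Igf2r between pools overlapped, as did those of Impact and Kcnq1ot1, so their order among themselves is not fixed by these pools.

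**Figure D1:**
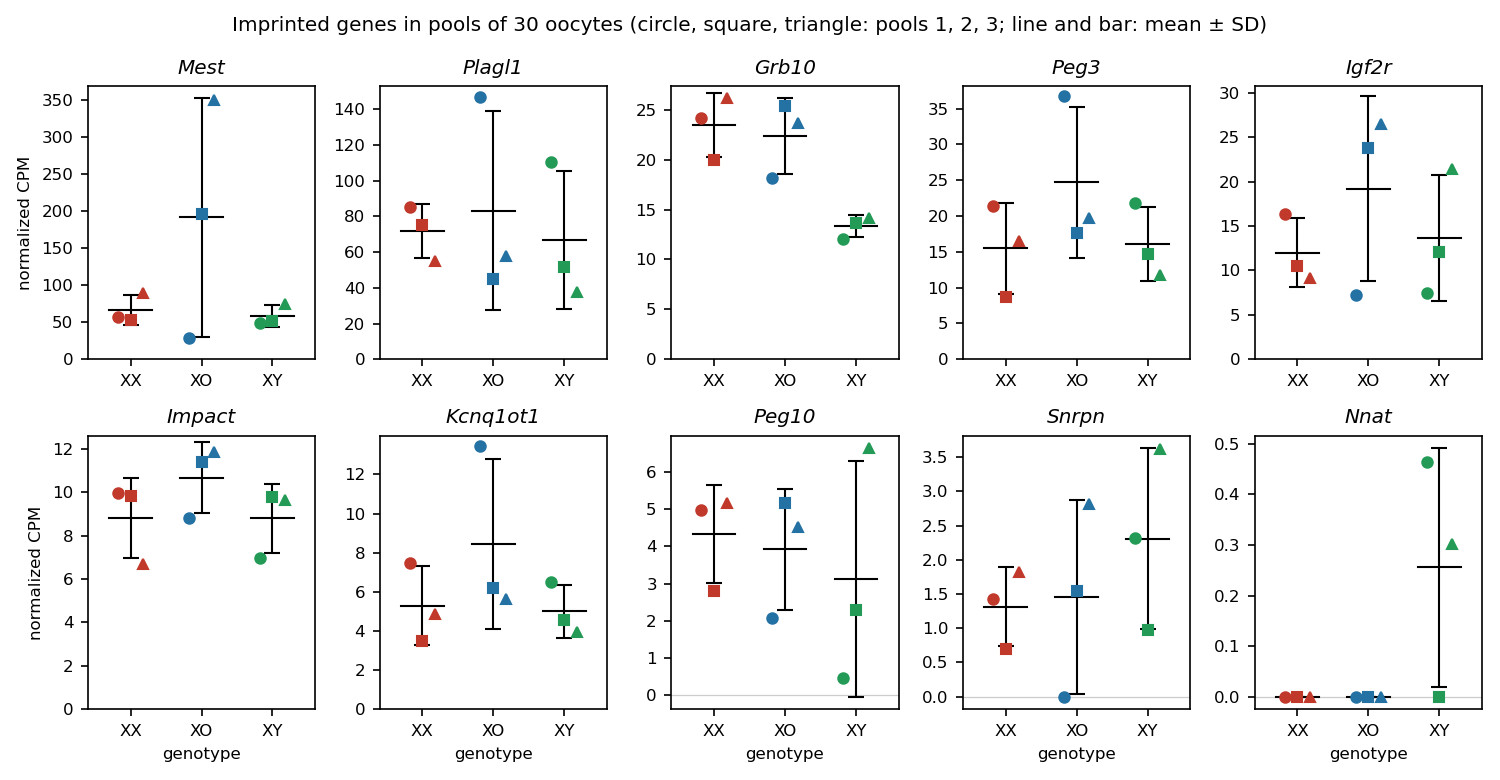
Normalized CPM of each imprinted gene (linear axis, own scale per panel) in the XX, XO and XY pools, ordered by mean level. Points are pools, and lines with bars are the mean ± SD of 3 pools. Grb10 is lower in every XY pool than in any XX or XO pool, whereas Mest spans 28.5 to 350.6 within the XO pools.

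Mest, which encodes an enzyme-like protein of the endoplasmic reticulum, had the highest mean of the members over the 9 pools, through XO pools 2 and 3. XX pools held 57.0, 52.5 and 89.9 normalized CPM, XY pools 48.3, 52.1 and 75.2, and XO pools 28.5, 196 and 351. XO pools 2 and 3 therefore exceeded all XX and XY pools, whereas XO pool 1 was below all of them. XX oocytes averaged 66.5 ± 20.4 (SD, n = 3), XO oocytes 191.8 ± 161 and XY oocytes 58.5 ± 14.5.

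Plagl1, a zinc finger transcription factor that restrains cell proliferation, was at 85.1, 75.3 and 55.1 normalized CPM in the XX pools, at 147, 45.0 and 57.6 in the XO pools, and at 111, 51.4 and 37.7 in the XY pools. Its highest value was in XO pool 1, the pool with the least Mest. The genotypes overlapped, with means of 71.9 ± 15.3, 83.2 ± 55.6 and 66.6 ± 38.7 (SD, n = 3 each). In XX and XY oocytes these means were above those of Mest, within the spread of the pools.

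Peg3 encodes another zinc finger protein, known for its part in maternal care and growth. It was at 21.4, 8.75 and 16.5 normalized CPM in the XX pools, at 36.8, 17.6 and 19.8 in the XO pools, and at 21.8, 14.6 and 11.8 in the XY pools. Again XO pool 1 was the highest and the genotypes overlapped. Impact, whose product inhibits the activation of the translation regulator GCN2, was the steadiest of the paternally expressed members with means of 8.83 ± 1.84 for XX, 10.7 ± 1.64 for XO and 8.80 ± 1.58 for XY oocytes. All 9 pools lay between 6.70 and 11.9 normalized CPM.

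Peg10, derived from a retrotransposon and needed for the placenta, had between 1 and 22 UMIs a pool. Its levels were 4.99, 2.80 and 5.18 normalized CPM in the XX pools, 2.07, 5.17 and 4.52 in the XO pools, and 0.465, 2.28 and 6.64 in the XY pools, so the XY pools alone spanned the values of all others. Snrpn, which encodes a protein of the spliceosome, had 12 UMIs over the XX pools, 8 over the XO pools, of which pool 1 had none, and 20 over the XY pools. These values were too low to pass edgeR's filter on low counts, and the genotypes overlapped.

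Nnat, a small membrane protein of brain and endocrine cells, was close to absent from the counts. It had 0 of 7574543 UMIs in XX and 0 of 7111142 in XO oocytes, which allows up to 3 UMIs or 0.335 and 0.532 normalized CPM, and 2 UMIs in XY oocytes, below that limit of 3. Such limits cover counting error only. No difference was detectable at this depth, and no fold is given. Blcap, the gene around Nnat, had 738 UMIs over the 9 pools, between 9 and 163 a pool (it was chosen after its values were seen).

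Kcnq1ot1 is a long non-coding RNA that silences its neighbours in cis. It was at 7.48, 3.50 and 4.87 normalized CPM in the XX pools, at 13.5, 6.20 and 5.65 in the XO pools, and at 6.51, 4.56 and 3.92 in the XY pools, from 10 to 26 UMIs each. XO pool 1 was the highest, and the genotypes overlapped.

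The maternally expressed members restrain growth. Igf2r, the receptor that clears IGF2, was at 16.4, 10.5 and 9.14 normalized CPM in the XX pools, at 7.25, 23.8 and 26.5 in the XO pools, and at 7.44, 12.0 and 21.4 in the XY pools. Its lowest values were those of XO pool 1 and XY pool 1, and the genotypes overlapped.

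Grb10, an adaptor that dampens signalling from the insulin and IGF receptors, was at 24.2, 20.0 and 26.2 normalized CPM in the XX pools, at 18.1, 25.3 and 23.7 in the XO pools, and at 12.1, 13.7 and 14.2 in the XY pools. All XY pools were below all XX and XO pools, which overlapped each other. XX oocytes averaged 23.5 ± 3.19 (SD, n = 3), XO oocytes 22.4 ± 3.78 and XY oocytes 13.3 ± 1.10. The SD among XY pools was 8.23% of the mean, the smallest of the tested members in this genotype.

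The genotypes were compared with edgeR's quasi-likelihood test on UMI counts, two-sided, among 10993 genes that passed the filter on low counts, 8 of the members among them and Nnat and Snrpn not. A gene is called when its unadjusted p is below 0.05, the threshold the study used. In XX against XO, 18.1% of all tested genes were called, 1.4% higher in XX and 16.7% higher in XO, and 0% after Benjamini-Hochberg adjustment. In XX against XY, 5.8% were called, 1.41% higher in XX and 4.39% higher in XY, and 0.0819% after adjustment. In XY against XO, 9.93% were called, 1.69% higher in XY and 8.24% higher in XO, and 0.0364% after adjustment. With the replicate number as a block in this fit of all 9 pools the shares called were 23%, 9.16% and 16.6%. The 3 comparisons share samples. At the same threshold, with limma and sva covariates, the study reported many autosomal genes lower in XO than in XX and XY oocytes. Most calls against XO here went the other way. With sva covariates in the edgeR fit they still did, with 3487 genes called higher in XO and 677 higher in XX. In XY against XO, 2243 were then called higher in XO and 866 higher in XY. With spike-in totals, 290 genes were called higher in XX and 53 higher in XO. In XY against XO that scaling called 63 genes higher in XY and 73 higher in XO. The median log2 fold change over all tested genes was -0.46, -0.19 and -0.30 for the 3 comparisons in this order, and it moved to -0.11, -0.0053 and -0.13 with TMM factors of the genes in place of those of the spike-ins and to 0.42, 0.49 and -0.11 with spike-in totals, so differences are also given relative to it. In bulk pools, a lower level in all oocytes and fewer oocytes with the transcript cannot be told apart.

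Of the 8 tested members, 0 were called in the comparison of XX with XO, 1 (12.5%) in that of XX with XY and 2 (25%) in that of XY with XO, and none had an adjusted p below 0.05 in any comparison. DESeq2 called 0, 1 and 1 of them, and 0 after adjustment. The members' median log2 fold change was -0.47 in XX against XO, 0.10 in XX against XY and -0.55 in XY against XO. With 8 genes, 1 call changes the share by 12.5 percentage points, so these shares are not set apart from the background. The samples of the genotypes did not overlap for 0, 1 and 1 members, whereas this held for 16.4%, 15.8% and 10.2% of all tested genes.

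**Figure D2:**
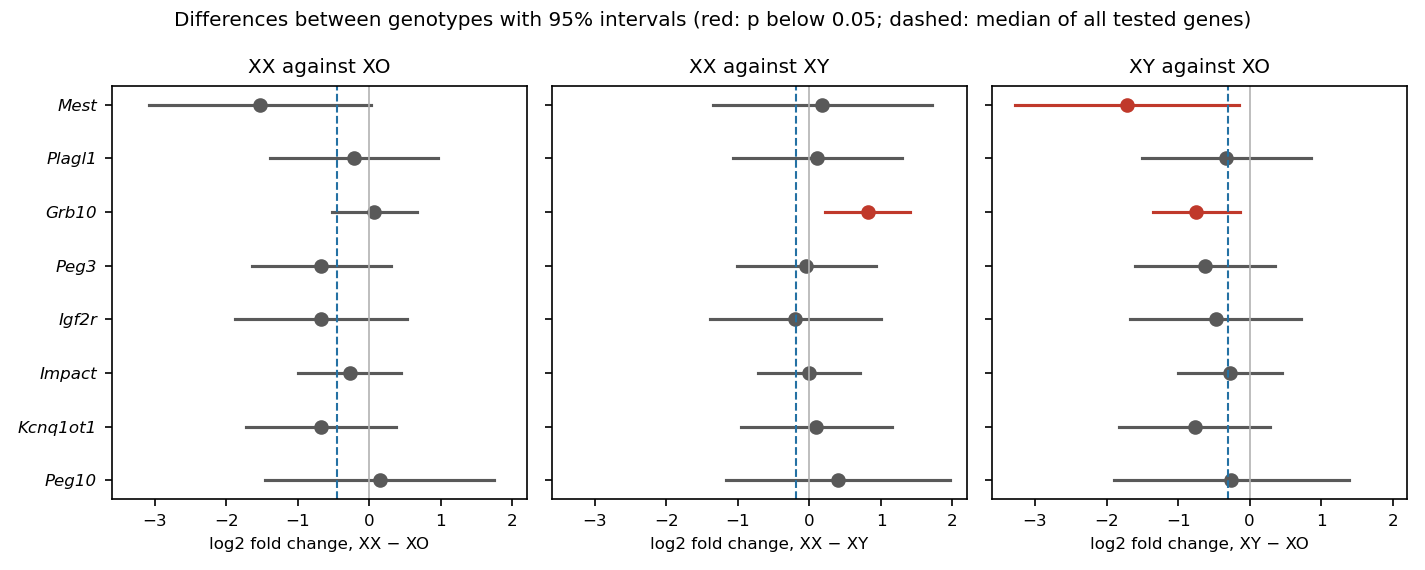
Log2 fold change (x axis) of the 8 tested imprinted genes in the 3 comparisons, with 95% intervals; red marks an unadjusted p below 0.05 and the dashed line the median of all tested genes. Grb10 is called against both XX and XO, Mest only in XY against XO, and the intervals of the others include 0.

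Grb10 was 1.76-fold higher in XX than in XY oocytes, a log2 fold change of 0.81 (SE 0.27, 95% interval 0.21 to 1.41, called, edgeR adjusted p = 0.618). The difference was 1.00 above the median of all tested genes, and between 0.99 and 1.09 above it with the other scalings. It was called with TMM factors of the genes (0.99, edgeR adjusted p = 0.363) and with DESeq2 (0.98, adjusted p = 0.121), but not with spike-in totals (1.58), without the filter on low counts (0.81) or without XX pool 3 (0.70). Grb10 was also 1.68-fold higher in XO than in XY oocytes, with a log2 fold change of -0.74 in XY against XO (SE 0.27, called, edgeR adjusted p = 0.485). Relative to the median this was -0.44, and the call was lost with TMM factors (-0.55), DESeq2 (-0.57), spike-in totals (-0.60), no filter (-0.74) and without XX pool 1 or 3, XO pool 2 or any 1 of the XY pools, where it ran from -0.65 to -0.68. XX and XO oocytes differed by 0.068 (95% interval -0.53 to 0.66).

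Mest was 3.27-fold higher in XO than in XY oocytes, with a log2 fold change of -1.71 in XY against XO (SE 0.70, 95% interval -3.27 to -0.15, called, edgeR adjusted p = 0.491), or -1.41 relative to the median. XO and XY pools overlapped because of XO pool 1. Without it the value was -2.16 (edgeR adjusted p = 0.0088), while 29.9% of all tested genes were called without this pool. The call was lost without XO pool 3 (-0.94), XO pool 2 (-1.69), XX pool 1 (-1.68), XX pool 3 (-1.68), XY pool 1 (-1.59), XY pool 2 (-1.57) or XY pool 3 (-1.85), and with spike-in totals (-1.56).

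In XX against XO, Mest was not called at -1.53 (SE 0.69, 95% interval -3.08 to 0.028, edgeR adjusted p = 0.28). Without XO pool 1 it was called at -2.01 with an edgeR adjusted p = 0.00501, as were 35.1% of all tested genes, and without XO pool 3 it was -0.76 and not called. It was also called without the filter on low counts (-1.53, edgeR adjusted p = 0.0214) and with the surrogate variable of sva as a covariate. In XX against XY it differed by 0.18 (95% interval -1.35 to 1.71). Some oocyte markers moved with Mest. Of 13 tested, 4 (30.8%) were called higher in XO than in XX oocytes, against 16.7% of all tested genes. They were the secreted growth factor gene Gdf9, the zona protein gene Zp1, the transcription factor gene Nobox and Ooep, of the subcortical maternal complex. Of the 13, 10 were below 0, with a median of -0.44 against -0.46 over all tested genes. Gdf9, Zp1 and Nobox averaged 1213, 980 and 572 normalized CPM in XO, 281, 69.8 and 79.3 in XX and 283, 75.1 and 109 in XY oocytes. The call of Gdf9 differs from the study, which reported no difference of it between the genotypes at this size, by RNA-Seq or qRT-PCR. Its edgeR adjusted p in XX against XO was 0.203 here, and its XO pools ran from 339 to 2432. Zp1 was at 14.0 in XO pool 1 against 759 and 2166 in XO pools 2 and 3. Zp2, another zona protein gene, averaged 12001 in XO and 16469 in XX oocytes, the other direction from Mest. Its XO pools, at 4919, 14837 and 16248, nevertheless had the order of Mest. Oosp1 did not have this order and was highest in XO pool 1, at 9137 against 2494 and 2495. Of the markers of other cells, Pecam1 was at 14.5, 109 and 132 in the XO pools and Serpine2 at 17.6, 34.6 and 63.2, both in the order of Mest. Cyp19a1 (3.62, 19.6 and 27.7) had this order too, whereas Nr5a2 (42.5, 25.3 and 23.1) and Kitl (8.28, 5.69 and 9.60) did not. The part of these markers in the difference of Mest was not tested.

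The study used surrogate variables of sva as covariates, and with 1 such variable in the edgeR fit 37.9%, 23% and 28.3% of all tested genes were called in the 3 comparisons. Grb10 was then at 0.81 in XX against XY (edgeR adjusted p = 0.0204). Mest was at -0.68 in XX against XO (edgeR adjusted p = 0.028) and at -0.81 in XY against XO (edgeR adjusted p = 0.0254), less than 1 log2 unit from 0 in each. Peg3 was called in addition in XX against XO, and Peg3, Plagl1 and Kcnq1ot1 in XY against XO.

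**Figure D3:**
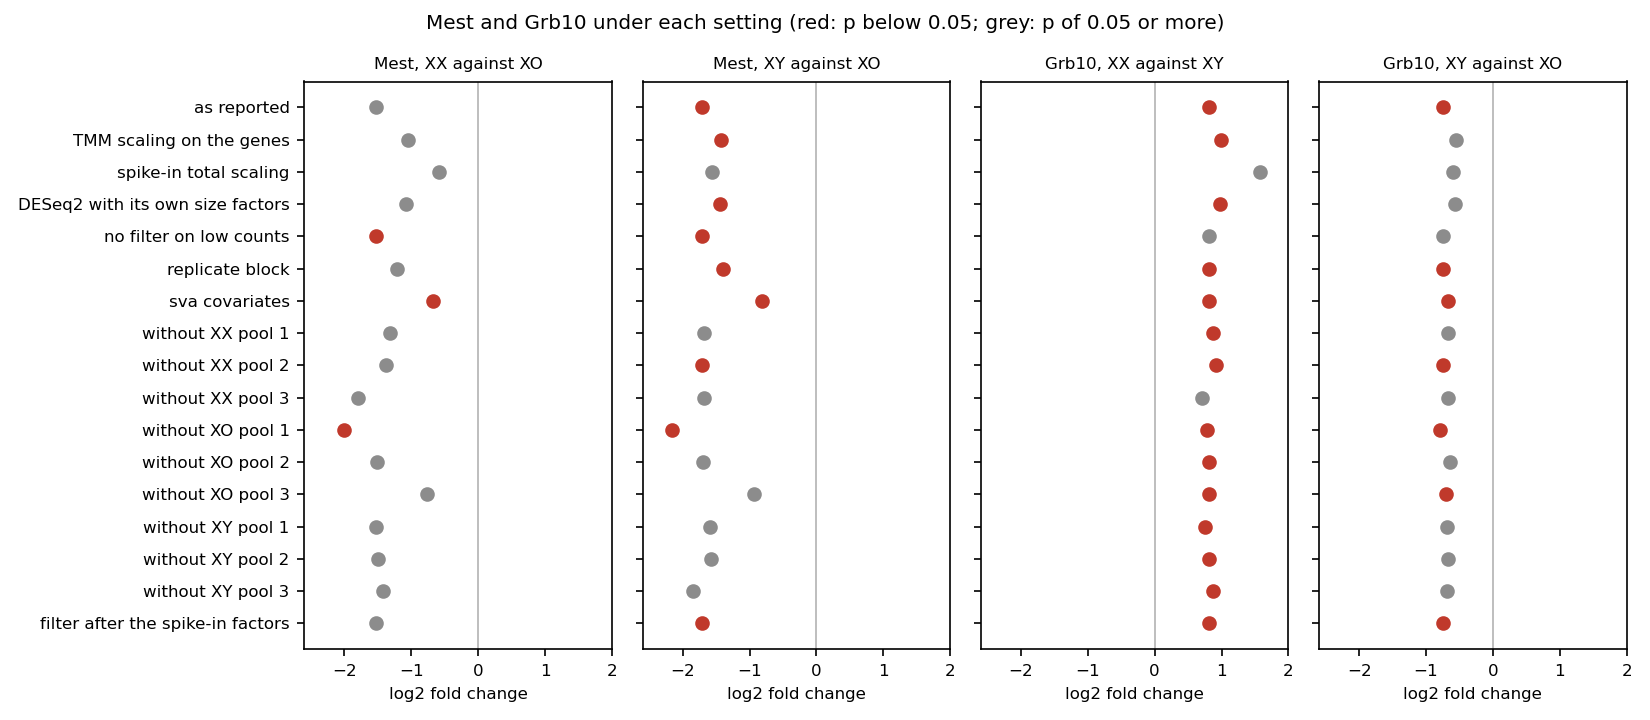
Log2 fold change (x axis) of Mest and Grb10 in the comparisons named above each panel, as reported and under each alternative (rows). Red points have an unadjusted p below 0.05. All points of a panel lie on 1 side of 0, and Mest runs from -0.58 with spike-in totals to -2.01 without XO pool 1 in XX against XO, and from -0.81 with the surrogate variable to -2.16 without XO pool 1 in XY against XO.

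The remaining members were not called in any of the 3 comparisons, whose log2 fold changes follow in the order used above. Peg3 had -0.67, -0.043 and -0.63, and Kcnq1ot1 -0.68, 0.095 and -0.77. Igf2r had -0.67, -0.20 and -0.48, and without XO pool 1 it was called in XX against XO at -1.02 (edgeR adjusted p = 0.126). Plagl1 had -0.21, 0.11 and -0.32, Impact -0.28, -0.0055 and -0.27, and Peg10 0.15, 0.40 and -0.25. The 95% intervals were wide, in XX against XO from -1.39 to 0.96 for Plagl1 and from -1.46 to 1.75 for Peg10. Impact had the narrowest interval of these, from -0.72 to 0.70 in XX against XY.

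Within XO and XY oocytes the members fell into the same groups by pool. Mest, Igf2r, Impact, Grb10 and Peg10 were lowest in pool 1 of both genotypes, and Plagl1, Peg3 and Kcnq1ot1 highest in pool 1 of both. This accounts for all 8 tested members, 5 and 3 in each genotype. In XX oocytes pool 1 was the lowest for 0 and the highest for 5 of the 8. The pattern was noticed after the values were seen and has no test. The share of all tested genes with such a shared extreme was not counted. Over all tested genes, the deviations of pools 1 of XY and XO from their genotype means correlated at 0.814. Genes outside the members did the same, with Zp1 lowest and Oosp1 highest in pool 1 of both. The pattern is therefore not shown to be particular to the members. It does not depend on the scaling for pairs of genes in the same pool: the ratio of Mest to Plagl1 UMIs was 0.669, 0.698 and 1.63 in the XX pools, 0.194, 4.37 and 6.09 in the XO pools and 0.437, 1.01 and 1.99 in the XY pools. Pools 1 of XO and XY thus had fewer Mest than Plagl1 UMIs, as did XX pools 1 and 2, and XO pools 2 and 3 had over 4 Mest UMIs for each of Plagl1.

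Other transcripts of the same loci were compared with the members inside each pool. Airn, the non-coding RNA that runs against Igf2r and silences it on the paternal copy, had 1760 UMIs over the 9 pools against 337 of Igf2r, and exceeded it in 9 of 9 pools by 2.98- to 10.4-fold. Usp29 and Zim3, neighbours of Peg3 with 1233 and 1276 UMIs, exceeded the 410 of Peg3 in 9 of 9 pools, from 1.39- to 5.68-fold and from 1.45- to 6.04-fold. Kcnq1, a potassium channel gene, exceeded Kcnq1ot1 in 9 of 9 pools, by 1.73- to 6.30-fold. Copg2, a coat protein gene behind Mest that was chosen after its values were seen, was at 0.460 of Mest over all pools and exceeded it in 1 of 9 pools, XO pool 1, where the ratio was 1.96.

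**Figure D4:**
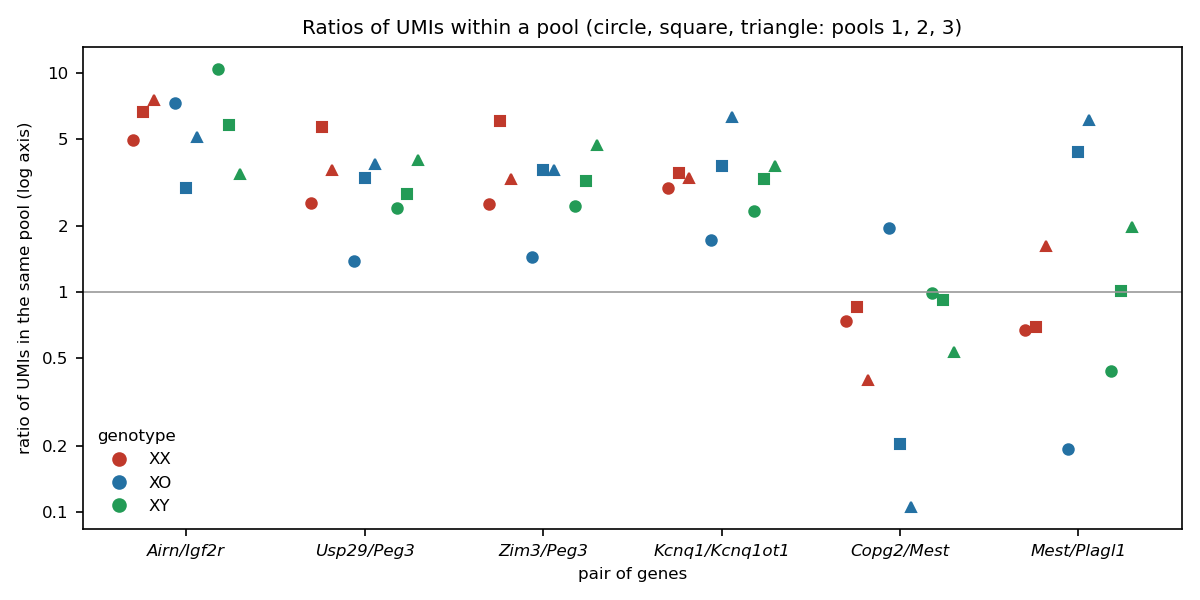
Ratio of UMIs of 2 genes in the same pool (log axis), which does not depend on the scaling between pools, for neighbours over members and for Mest over Plagl1. Airn, Usp29, Zim3 and Kcnq1 exceed the member of their locus in all 9 pools, whereas the ratios with Mest spread most among the XO pools.

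Of 40 neighbours of the members, 34 had a value and 15 were tested. The most abundant were Airn (77.8 normalized CPM), the ubiquitin ligase gene Ube3a (67.2), Zim3 (56.1) and Usp29 (54.5), and their log2 fold changes lay between -0.63 and 0.21 with no call. With the surrogate variable Ube3a was called in XX against XO and in XY against XO, where 37.9% and 28.3% of all tested genes were called. Cobl, an actin nucleator gene close to Grb10, was higher in XO than in XX oocytes (-1.86, SE 0.53, edgeR adjusted p = 0.203) and in XY than in XX oocytes (-1.37, SE 0.53, edgeR adjusted p = 0.752), from 4 to 18 UMIs a pool. Its pools did not overlap in either comparison, and in XX against XY its direction was opposite to that of Grb10. Kcnq1 was higher in XO than in XY oocytes (-0.86, SE 0.32, edgeR adjusted p = 0.485), at 23.3, 23.3 and 35.6 against 15.3, 15.0 and 14.8 normalized CPM. With spike-in totals neither Cobl (-0.89 and -0.36) nor Kcnq1 (-0.72) was called. Cobl stayed called in XX against XO with any 1 pool left out, but not in XX against XY without XX pool 1 (-1.07), XX pool 2 (-1.17) or XY pool 1 (-1.06), and Kcnq1 was not called without XX pool 3 (-0.79), XO pool 3 (-0.63), XY pool 2 (-0.78) or XY pool 3 (-0.74), or without the filter on low counts (-0.86).

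Among 39 other imprinted genes, 35 had a value and 11 were tested. Gnas, the stimulatory G protein subunit, led with 154 normalized CPM, followed by Commd1 (41.6), Herc3 (35.8) and the phosphatase gene Inpp5f (29.8), none of them called in the fit as reported. Without XO pool 1 Commd1 was called higher in XO than in XX oocytes (-0.85, edgeR adjusted p = 0.0995). With the surrogate variable Gnas was called in XX against XO, also after adjustment, where 37.9% of all tested genes were called. Zrsr1, a retrogene in an intron of Commd1, had 12, 14 and 15 UMIs in XY pools against 5, 5 and 4 in XX and 3, 5 and 4 in XO pools. It was higher in XY than in XX oocytes (-1.60 in XX against XY, SE 0.41, edgeR adjusted p = 0.395) and than in XO oocytes (1.17 in XY against XO, SE 0.42, edgeR adjusted p = 0.485), and no XY pool overlapped the others. Ampd3, an AMP deaminase gene, was higher in XO than in XX (-1.53, SE 0.66, edgeR adjusted p = 0.267) and than in XY oocytes (-1.51, SE 0.66, edgeR adjusted p = 0.501), with XO pool 1 (7.25) below the others (40.8 and 48.5) as for Mest. With spike-in totals neither Zrsr1 (-1.02 and 1.25) nor Ampd3 (-0.59 and -1.24) was called, and Zrsr1 was not called in XY against XO without XO pool 1 (1.07), XO pool 3 (1.21) or XY pool 1 (1.08), or without the filter on low counts (1.17). Ampd3 was not called with TMM factors in either comparison (-1.09 and -1.27), nor with DESeq2 in XX against XO (-1.12). With 1 pool left out at a time, Ampd3 kept its call in XX against XO only without XO pool 1 (-1.96) or XY pool 1 (-1.53) and otherwise ran from -1.11 without XO pool 3 to -1.88 without XX pool 3. In XY against XO it kept its call only without XO pool 1 (-1.88) or XY pool 3 (-2.01) and otherwise ran from -1.09 without XO pool 3 to -1.51 without XX pool 2. Over neighbours and other imprinted genes together, 2 of 26 were called in XX against XO (7.69%), 2 in XX against XY (7.69%) and 3 in XY against XO (11.5%), none after adjustment. Of all tested genes, 18.1%, 5.8% and 9.93% were called in these comparisons. Without XO pool 1 Th, which encodes tyrosine hydroxylase, was called in XY against XO as well. The median log2 fold changes of the 26 were -0.28, -0.022 and -0.25, against -0.46, -0.19 and -0.30 over all tested genes.

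All 12 genes that set or protect imprints were tested. Dppa3, which shields the maternal genome from loss of methylation and is also an oocyte marker, led with 3701 normalized CPM, before the maintenance methyltransferase Dnmt1 (1155), the histone demethylase Kdm1b (163) and Zfp57 (156). In XX against XO all 12 had a log2 fold change below 0, with a median of -0.86 against -0.46 over all tested genes. Of the 12, 2 (16.7%) were called, against 18.1% of all tested genes: Dnmt3a (-1.09, SE 0.49, edgeR adjusted p = 0.275) and the H3K36 methyltransferase Setd2 (-0.85, SE 0.29, edgeR adjusted p = 0.214). In XY against XO all 12 were again below 0, with a median of -0.76 against -0.30 over all tested genes. Kdm1b (-0.84, SE 0.28, edgeR adjusted p = 0.485) and Setd2 (-0.74, SE 0.29, edgeR adjusted p = 0.485) were called, 16.7% of the list against 9.93% of all tested genes. With the replicate block Uhrf1, a partner of DNMT1, was called as well (-0.96, edgeR adjusted p = 0.25). Without XO pool 1, 9 of the 12 were called in XX against XO (4 after adjustment) and 8 in XY against XO (2 after adjustment), where Dnmt3a was at -1.17 (edgeR adjusted p = 0.0449), against 35.1% and 29.9% of all tested genes. With the surrogate variable 8 and 5 of the 12 were called (5 and 4 after adjustment), against 37.9% and 28.3% of all tested genes. In these settings the members of the list below 0 numbered 11 and 10 without XO pool 1, and 9 and 11 with the surrogate variable. Between XX and XY oocytes 0 of 12 were called by edgeR at an unadjusted p below 0.05, and 0 by DESeq2. The direction in XX against XO depended on the scaling. With TMM factors 12 of 12 were below 0 (median -0.44 against -0.11 over all tested genes, none called). With spike-in totals 6 of 12 were below 0 (median 0.026 against 0.42 over all tested genes), and Setd2 was at 0.075. Dnmt3a lost its call without any 1 pool other than XO pool 1, and reached -0.53 without XO pool 3, and it was not called with DESeq2 (-0.68). Setd2 lost its call in XX against XO without XX pool 1 (-0.73), XX pool 2 (-0.73), XO pool 3 (-0.68) or XY pool 3 (-0.73), and in XY against XO without any 1 pool other than XX pool 2 and XO pool 1. Kdm1b lost it without XY pool 2 (-0.63) or XY pool 3 (-0.73). In XY against XO both also lost it with spike-in totals (Kdm1b -0.63, Setd2 -0.57) and without the filter on low counts (-0.84 and -0.74), as did Setd2 without the filter in XX against XO (-0.85). Dnmt3a was at 20.7, 59.5 and 97.7 normalized CPM in XO pools, against 24.2–32.6 in XX and 27.3–43.2 in XY pools. Its cofactor Dnmt3l, chosen after its values were seen, had 3 UMIs in XO pool 1 against 41 and 73 in XO pools 2 and 3, and both genes had the order of Mest over these pools. Hells (84.9, 30.5 and 28.2 normalized CPM), Zfp445 (55.9, 39.3 and 32.7) and Kdm1b (266, 186 and 207) were instead highest in XO pool 1. The other genes of the list were lowest in it.

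The genes whose pattern over the 9 pools was most like that of the most abundant members were looked up among the 7275 other genes that averaged 10 normalized CPM or more, by Pearson's r of log2(normalized CPM + 1), as a description. For Mest they included Prim2 (0.992), a primase subunit, and Prkaa1 (0.991), a subunit of AMP-activated kinase. For Plagl1 they were Zfp709 (0.986), Olfr1300-ps1 (0.985) and Gm44840 (0.984). For Grb10 the closest was Bmp15 (0.955), an X-linked growth factor of oocytes, before Gm3106 (0.95) and Gm16427 (0.916). All points share libraries and their depth, so these coefficients carry no test.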

How the data were processed

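RNA of 9 pools of 30 oocytes (3 each from XX, XO and XY females) was sequenced by Smart-seq3. The authors used Hisat2 and GRCm38 for stranded, paired-end alignment and deposited counts of 5′ UMIs per gene, with 79 ERCC spike-ins. A second matrix deposited by the authors holds a signal they call normalized CPM. It was recomputed from the counts as CPM of the gene UMIs, divided by the spike-in TMM factor, with a largest relative difference of 5.01e-15. The third matrix, of batch-regressed log2 values, served for coordinates (other columns deposited by the authors), and its 9 per-sample columns were not used.

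Counts were tested with edgeR 4.0.16 (glmQLFit, glmQLFTest) in R 4.3.3: library size as gene total, spike-in TMM factors, filterByExpr by genotype before the factors, and 1 fit of 9 samples with 1 mean per genotype. With the filter after the factors, which was run first, 11411 genes were tested. The order was changed after those values were seen so that all scalings test the same genes, and no call among the members differed. SE is the log2 fold change over the root of F. Alternatives used DESeq2 1.42.0, sva 3.50.0 (1 surrogate variable), other scalings, no filter, a replicate block and each sample left out. The fit was tested on simulated data. Pools are labelled biological triplicates.

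The members and gene lists were chosen with earlier results of these data known. The text names all members and, from each list, the 4 genes with the highest mean and up to 3 called per comparison with the smallest p, besides the 3 genes most like each of the 3 most abundant members. Replicate numbers were checked for pairing by correlating, across tested genes, deviations from the genotype means. For XY and XO pools of the same number the correlations were 0.814, 0.271 and 0.763, so these were taken as paired. This rests on the data alone, since the labels state no pairing and XO and XY females came from different crosses. Deviations from means of 3 pools depend on each other, and an outlying pool can raise such correlations. For XX against XO (0.444, -0.421, 0.660) and XX against XY (0.410, -0.0582, 0.706) pools were not taken as paired. XX and XY females were littermates, but which pools shared litters is not given in the sources used here. One gene among those most like Mest in pattern is not reported here.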

Additional observations from a re-analysis of the deposited data

How the results depend on the processing

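Among the members, 0 to 2 were called in XX against XO when 1 sample was left out (2 without XO pool 1, Mest and Igf2r), 0 to 1 in XX against XY (0 without XX pool 3) and 0 to 2 in XY against XO, where 7 of 9 omissions changed the count. Of other imprinted and neighbouring genes, 1 to 3, 1 to 2 and 1 to 3 were called in the same order. Members called in XX against XO became 1 without the filter and 2 with sva covariates. In XX against XY they became 0 with spike-in totals and 0 without the filter. In XY against XO they became 1 with TMM factors, 1 with DESeq2, 1 without the filter, 0 with spike-in totals and 5 with sva covariates. Of the other imprinted and neighbouring genes, the count in XX against XO moved from 2 to 1 with TMM factors, 1 with DESeq2, 0 with spike-in totals, 9 of 69 tested without the filter and 6 with sva covariates. In XX against XY it moved from 2 to 0 with spike-in totals and 4 without the filter, and in XY against XO from 3 to 0 with spike-in totals, 6 without the filter and 5 with sva covariates.

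With the replicate block, the counts of members called stayed at 0, 1 and 2, and Mest was -1.39 and Grb10 -0.74 in XY against XO. Over all tested genes the block, fitted to all 9 pools, moved the count from 1092 to 1827 in XY against XO. The XY and XO pools were taken as paired from the data alone. The count moved from 1986 to 2527 in XX against XO and from 638 to 1007 in XX against XY. The pools of these comparisons were not taken as paired. Filtering before the spike-in factors was chosen after seeing the data, and the order run first, filtering after them, changed no count by over 1.5 times.

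The sign of a member's log2 fold change turned in 18 of 168 values under other settings and in 20 of 216 with 1 sample left out, none of them of a called difference. With spike-in totals these were, in XX against XO, Peg3 (0.39), Impact (0.44), Plagl1 (0.74) and Kcnq1ot1 (0.29), in XX against XY, Peg3 (0.88), Impact (0.53) and Igf2r (0.17), and in XY against XO, Peg10 (0.15). With TMM factors they were Impact (0.10) and Plagl1 (0.059) in XX against XO and Peg3 (0.11) and Impact (0.17) in XX against XY, and with DESeq2 the same genes (0.054, 0.013, 0.085 and 0.15). With sva covariates they were Peg3 in XX against XY (0.024) and Peg10 in XY against XO (0.18). With 1 sample left out, XX against XO ran from -0.51 to 0.53 for Plagl1, -0.014 to 0.20 for Grb10 and -0.11 to 0.40 for Peg10. XX against XY ran from -0.23 to 0.24 for Peg3, -0.12 to 0.42 for Mest, -0.14 to 0.13 for Impact, -0.16 to 0.69 for Plagl1, -0.48 to 0.29 for Igf2r, -0.14 to 0.31 for Kcnq1ot1 and -0.048 to 1.55 for Peg10. XY against XO ran from -0.90 to 0.42 for Plagl1 and -1.29 to 0.19 for Peg10. The cause was not tested. Depth limits Nnat, Snrpn and Peg10 above all, with 2, 40 and 91 UMIs in all.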
